A study of Danio rerio with 12 samples.

Results

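Calpains are cysteine proteases of the cytosol that are switched on by calcium and cut their substrates at a few sites rather than degrading them. Here 10 zebrafish calpain genes were followed in whole eyes, out of 16 calpain genes in a deposited table of 37055 genes. The 10 were capn1a, capn1b, capn2a, capn2b, capn2l, capn3a, capn5b, capn8, capn9 and capn10. Of these, 9 stood in the table under those symbols, and capn2l stood there as zgc:92480 and was found through its NCBI Gene number in a RefSeq table of the assembly GRCz12tu. The family was chosen by its level in lrpap1-KO against WT eyes, namely the higher capn2b of the mutants. The differences of the 10 genes between genotypes are therefore a description and are given with no p-value. The eyes came from 6 lrpap1-KO zebrafish, homozygous for a CRISPR/Cas9 frameshift in lrpap1, a chaperone gene of LDL receptor family proteins, and from 6 wild-type (WT) zebrafish. All 12 fish were 3 months old, and each sample held the pair of eyeballs of 1 fish. The mutants belonged to 1 stable line, so the mutation and anything else fixed in that line cannot be told apart.

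The classical calpains are dimers of a large catalytic subunit, such as calpain 1 or calpain 2, and a shared small subunit that binds calcium, and calpastatin is their dedicated inhibitor. Calpain 8 and calpain 9 have the same domain plan and are best known from the mammalian stomach and gut. Calpain 3 is the calpain of skeletal muscle in mammals, where it binds titin, and rodents also make lens forms of it. Calpain 5 and calpain 10 lack the calcium-binding domain that pairs with the small subunit. In the rodent lens, calpains cut crystallins and cytoskeletal proteins when calcium enters the fibre cells.

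The total count per sample was 7996647 to 9780310 in lrpap1-KO eyes and 7988538 to 9829112 in WT eyes. Expression is given as CPM, counts per 1000000 of the TMM-scaled total of a sample, and as TPM, which also divides by gene length and serves to compare genes. Of the 18984 genes that passed the filter on low counts, 4.55% were differentially expressed at both thresholds of the methods (Benjamini-Hochberg adjusted p below 0.05, change of more than 1 on the log2 scale in either direction), and 3.68% were so and higher in lrpap1-KO eyes. The targeted gene was at 18.9 ± 2.1 CPM in lrpap1-KO and 27.1 ± 3.8 CPM in WT eyes (SD, n = 6 each), a log2FC of -0.52 (SE 0.11, edgeR adjusted p = 0.0108), where log2FC is the log2 fold change of lrpap1-KO over WT eyes and SE its standard error. One library stood apart. In WT replicate 3 the 72 genes described as crystallins or crystallin-related made up 0.132% of the TPM, against 12.4% to 20.4% in the other 11 samples. For this reason the log2FCs that moved most are also given without that sample. In whole eyes, fewer cells of a type and less RNA per cell cannot be told apart.

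All 10 calpain genes passed the filter. By the thresholds above, 3 of the 10 were differentially expressed, capn2b, capn2l and capn9, all higher in lrpap1-KO eyes. Over all genes tested, 3.68% were so in that direction. The same 3 had all lrpap1-KO samples above all WT samples, which was so for 3.69% of all genes tested. The choice of the family used this contrast, and nothing is read from these counts. The log2FC was above 0 for 5 of the 10 genes, and its median was 0.40, or 0.32 without WT replicate 3, against -0.02 over all genes tested. In description only, 3 of the 10 genes had large differences, and a pair (capn2a and capn8) was higher on average with wide overlap. The other 5 had a mean difference near or below 0.

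**Figure D1:**
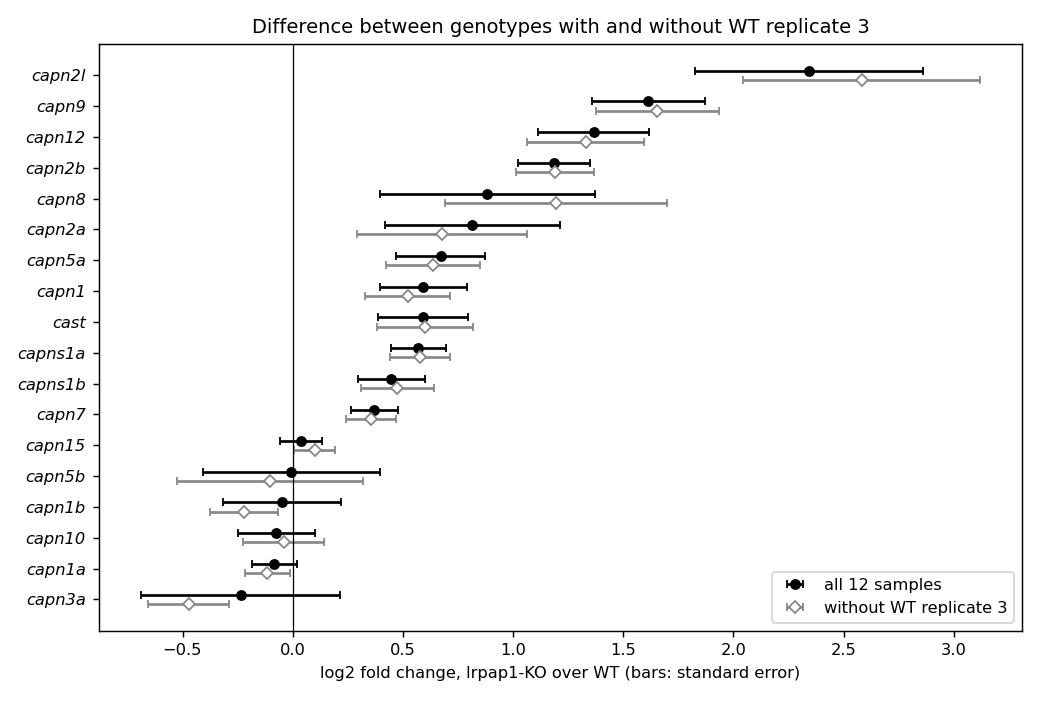
Log2 fold change of lrpap1-KO over WT eyes (x axis) with its standard error for 15 calpain genes, both small subunits and calpastatin (y axis), from all 12 samples (filled circles) and without WT replicate 3 (open diamonds). The values run from 2.34 for capn2l to -0.24 for capn3a, and that of capn3a shifted most on the negative side, to -0.47, without that sample.

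capn2b encodes the large subunit of an m-type calpain (calpain 2). It was measured at 182, 154, 194, 142, 123 and 105 CPM in lrpap1-KO replicates 1 to 6, against 77.0, 55.7, 63.0, 48.1, 81.3 and 71.1 CPM in WT replicates 1 to 6. The lowest lrpap1-KO sample lay above the highest WT sample. This gave a log2FC of 1.18 (SE 0.16), a 2.27-fold difference, and it was 1.19 without WT replicate 3. The spread was similar in both genotypes, with a coefficient of variation of 22.7% in lrpap1-KO and 19.4% in WT eyes. Among the mutants, replicates 1 to 3, at 154 to 194 CPM, all lay above replicates 4 to 6, at 105 to 142 CPM.

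capn2l, a calpain 2-like gene, differed most. It was at 154, 104, 149, 97.3, 107 and 77.7 CPM in lrpap1-KO replicates 1 to 6. In WT replicates 1 to 6 it was at 44.3, 16.6, 38.3, 2.29, 30.1 and 4.84 CPM. The WT fish differed widely among themselves, from 22 to 343 counts, and the coefficient of variation was 26.2% in lrpap1-KO and 77.1% in WT eyes. WT replicates 4 and 6 were far below the other 4. The log2FC was 2.34 (SE 0.52), and it was 2.58 without WT replicate 3, one of the higher WT samples.

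capn9 encodes calpain 9, known from the gut epithelium of mammals. Its values were 175, 139, 155, 142, 125 and 78.2 CPM in lrpap1-KO replicates 1 to 6, against 75.6, 27.3, 47.8, 23.8, 40.0 and 52.0 CPM in WT replicates 1 to 6. The genotypes came close, since lrpap1-KO replicate 6 was at 78.2 CPM and WT replicate 1 at 75.6 CPM, but they did not overlap. Its log2FC was 1.61 (SE 0.26), a 3.06-fold difference, and it was 1.66 without WT replicate 3. In all 3 of these genes lrpap1-KO replicate 6 was the lowest mutant sample, and WT replicate 4 was the lowest WT sample.

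**Figure D2:**
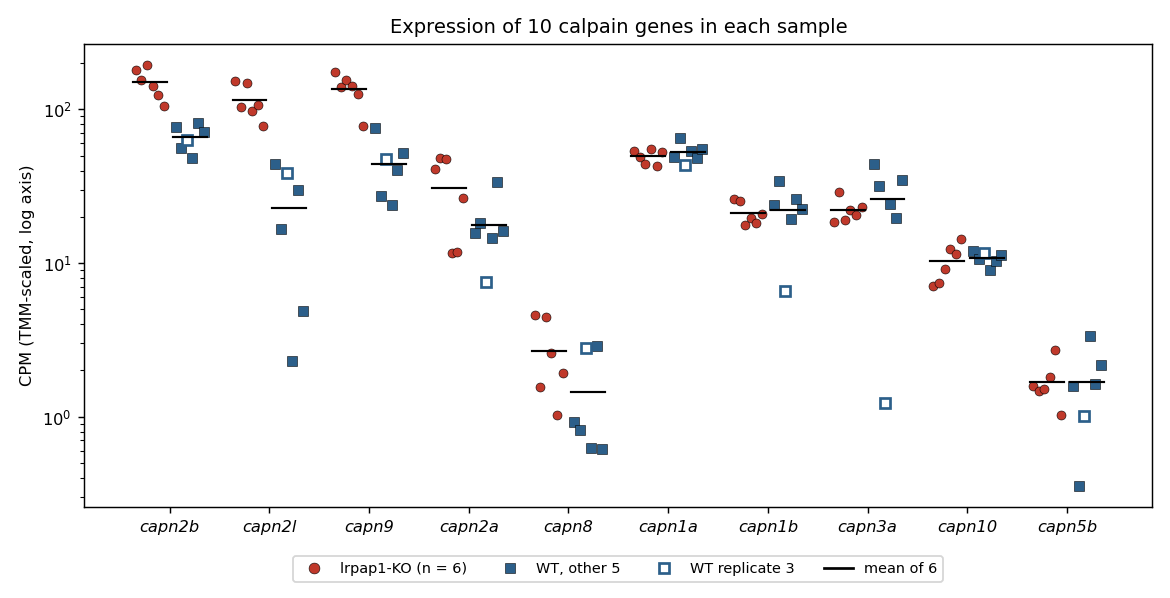
CPM on a log axis (y) of the 10 calpain genes (x) in each lrpap1-KO sample (circles, left of each pair) and each WT sample (squares, right), with the mean of 6 as a line and WT replicate 3 as an open square. For capn2b, capn2l and capn9 every lrpap1-KO value is above every WT value, and for capn3a WT replicate 3 is at 1.23 CPM, far under the other 11 samples.

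Surface epithelium and leukocytes were checked with marker lists, since other cell types of the eyeball could carry these calpains. Of 18 markers of surface epithelium, all tested, 6 were differentially expressed and higher in lrpap1-KO eyes and 0 were lower, or 1 without WT replicate 3. Over all genes tested, 3.68% were so and higher in lrpap1-KO eyes, the share to set beside both lists. The log2FC was above 0 for 13 of the 18, with a median of 0.76. At any fold change, 8 of them were higher and 1 was lower with an edgeR adjusted p below 0.05. Those higher included krt4, at 2676 ± 611 CPM in lrpap1-KO and 1220 ± 454 CPM in WT eyes (SD, n = 6 each), and evpla, which encodes envoplakin of the cornified envelope, at 262 ± 80 CPM in lrpap1-KO and 92.9 ± 34 CPM in WT eyes (SD, n = 6 each). Others lay the other way, among them krt94, at 156 ± 52 CPM in lrpap1-KO and 289 ± 108 CPM in WT eyes (SD, n = 6 each; log2FC -0.90, edgeR adjusted p = 0.0423), and krt15 and krt91, with log2FCs of -0.71 (edgeR adjusted p = 0.161) and -0.43 (edgeR adjusted p = 0.238). The summed level of the 18 markers, most of which came from krt5 and krt91, did not separate the genotypes, with 13861 to 25873 CPM in lrpap1-KO and 14042 to 21004 CPM in WT eyes. Of 15 leukocyte markers, 13 were tested and 5 were differentially expressed (4 without WT replicate 3), all higher in lrpap1-KO eyes, with a summed level of 683 to 1479 CPM in lrpap1-KO and 474 to 998 CPM in WT eyes. Most of that sum came from cd74a and cd74b, which were not differentially expressed (edgeR adjusted p = 0.245 and 0.0550). The log2FC was above 0 for 12 of the 13 leukocyte markers tested, with a median of 0.83. Defining markers of both cell types were present, since krt5 was at 4639 to 9117 CPM in lrpap1-KO and 5315 to 8547 CPM in WT eyes, and ptprc, which encodes the pan-leukocyte protein CD45, at 24.9 ± 7.2 CPM in lrpap1-KO and 11.3 ± 4.5 CPM in WT eyes (SD, n = 6 each). krt92 and lyz were each at 0 in 1 WT sample. The part of these cell types in the calpain values was not tested.

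capn2a, the other gene for a calpain 2 large subunit, varied widely between fish. It was at 40.7, 48.3, 47.4, 11.6, 11.7 and 26.4 CPM in lrpap1-KO replicates 1 to 6, against 15.6, 18.1, 7.48, 14.5, 33.9 and 16.3 CPM in WT replicates 1 to 6. Within the mutants, replicates 1, 2 and 3 were high and replicates 4 and 5 were below most of the WT samples, so the ranges overlapped. Its log2FC was 0.82 (SE 0.40), and 0.68 without WT replicate 3. In the same mutants the fibroblast markers, 8 genes that include the type I collagens, summed to 1101 and 1120 CPM in replicates 4 and 5, against 3024 to 4192 CPM in the other 4. The sum in WT replicates 1 to 6 was 4784, 2819, 745, 4841, 8376 and 5825 CPM. WT replicates 3 and 5 were lowest and highest for both capn2a and the sum, while the other 4 did not follow one order. The median sum was 3060 CPM in lrpap1-KO and 4813 CPM in WT eyes, while the mean of capn2a was higher in lrpap1-KO eyes. Most of the sum came from col1a1a, col1a1b and col1a2, so its direction is mainly theirs. Of the 8 markers, 3 had a log2FC above 0, fbln1 (0.78), dcn (0.15) and pdgfra (0.02), and the rest had one below 0. The mutants also split in other sums, though between replicates 1 to 3 and replicates 4 to 6. The leukocyte sum was 1063 to 1479 CPM in lrpap1-KO replicates 1 to 3 and 683 to 847 CPM in replicates 4 to 6. For the skeletal muscle markers given below it was 1086 to 1773 CPM and 862 to 933 CPM. The lens fibre sum showed no such split, and the retina sum was higher in replicates 4 to 6. The surface epithelium sum, mostly krt5 and krt91, showed none either. Its markers did split in this way, other than krt5, krt91, krt97, epcam and anxa1b. For example, krt4 was at 3018 to 3520 CPM in replicates 1 to 3 and 1909 to 2335 CPM in replicates 4 to 6. Whether any of these cell types accounts for the spread of capn2a was not tested.

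capn8, which encodes calpain 8, was low in every eye. It had 43, 16, 41, 20, 9 and 17 counts in lrpap1-KO replicates 1 to 6, against 7, 7, 25, 6, 28 and 6 counts in WT replicates 1 to 6. Its log2FC was 0.88 (SE 0.49), and 1.19 without WT replicate 3, one of the higher WT samples. WT replicates 3 and 5 lay inside the mutant range, and the other 4 WT samples lay below every mutant.

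Both genes for large subunits of the calpain 1 type overlapped between genotypes. capn1a was at 42.7 to 55.3 CPM in lrpap1-KO eyes (median 50.9) and 43.5 to 64.8 CPM in WT eyes (median 51.5), with a log2FC of -0.08 (SE 0.10). capn1b was at 17.8 to 26.2 CPM in lrpap1-KO eyes and 6.59 to 34.0 CPM in WT eyes. Its log2FC was -0.05 (SE 0.27), and -0.22 (SE 0.15) without WT replicate 3, the one sample far below the rest. For both genes the sign turned in some alternative fits.

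capn10 and capn5b, of the group without the calcium-binding domain, also showed no separation. capn10 was at 7.10 to 14.3 CPM in lrpap1-KO and 9.05 to 12.0 CPM in WT eyes, with a log2FC of -0.08 (SE 0.17). Its spread was wider among the mutants, with a coefficient of variation of 27.9% against 9.94% in WT eyes. capn5b, one of a pair of zebrafish counterparts of the human gene mutated in an inherited vitreoretinopathy, had only 9 to 24 counts in lrpap1-KO and 3 to 32 counts in WT eyes, and its log2FC of -0.01 had a standard error of 0.40. It was -0.10 (SE 0.42) without WT replicate 3.

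capn3a, the calpain 3 gene, was far lower in WT replicate 3 than in any other eye. It had 174, 296, 176, 171, 181 and 203 counts in lrpap1-KO replicates 1 to 6, against 335, 269, 11, 234, 192 and 338 counts in WT replicates 1 to 6. As CPM, WT replicate 3 was at 1.23 and the lowest of the other 11 samples at 18.4. With all samples capn3a averaged 22.0 ± 3.8 CPM in lrpap1-KO and 26.0 ± 14.8 CPM in WT eyes (SD, n = 6 each), a log2FC of -0.24 (SE 0.45). Without WT replicate 3 the WT mean was 31.0 ± 9.5 CPM (SD, n = 5) and the log2FC was -0.47 (SE 0.19). The ranges still overlapped, with 18.4 to 28.8 CPM in lrpap1-KO and 19.7 to 44.3 CPM in the 5 remaining WT eyes.

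Lens genes were low in that library too. The 14 lens fibre markers, among them mipa and mipb for the water channel of fibre cells and bfsp1 and bfsp2 for the beaded filament, summed to 3507 to 3891 CPM in lrpap1-KO eyes. In WT eyes the sum was 27.9 CPM in replicate 3 and 3394 to 6719 CPM in the other 5. In WT replicate 3 gja8a, a lens connexin gene, was at 0 and the other 13 markers at 0.112 to 6.81 CPM. Among the 10 calpains, capn1b and capn2a were also lowest in that sample, at 6.59 and 7.48 CPM, or 0.286 and 0.289 of the mean of the other 11 samples, against 0.0471 for capn3a. Of the further calpain genes given below, capn1 and capn7 were lowest there too, at 6.03 and 20.5 CPM. The lowest of the other 11 samples was at 7.90 CPM for capn1 and 21.1 CPM for capn7. capn2b, capn2l, capn9 and capn8 were not, since in that sample each lay above at least 1 other WT eye. Low values in WT replicate 3 were not confined to lens genes. Its fibroblast and skeletal muscle sums, 745 and 797 CPM, were also below the other 11 samples, at 1101 and 862 CPM or more. Its retina sum was the highest, at 38416 CPM, and its surface epithelium and leukocyte sums lay within the range of the others. The part of any cell type in the calpain values of that sample was not tested. The median log2FC of the lens fibre list was -0.25, and -0.50 without WT replicate 3, so capn3a lay close to it in both fits. None of the 14 was differentially expressed by edgeR's quasi-likelihood test, with 0 at an unadjusted p under 0.05 and 0 by DESeq2. Without WT replicate 3, 9 of the 14 had an unadjusted p under 0.05 and 2 an adjusted p below 0.05 in edgeR, and still 0 passed both thresholds.

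**Figure D3:**
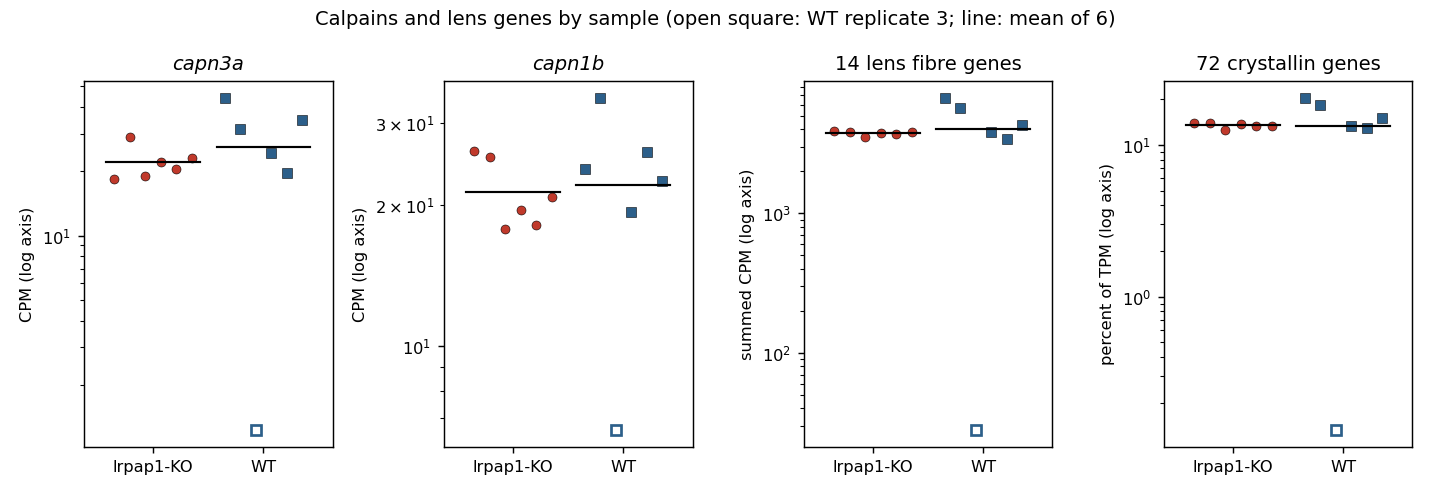
Values on log axes of capn3a and capn1b (CPM), of the sum of 14 lens fibre genes (CPM) and of the share of TPM from 72 genes described as crystallins (percent) in each lrpap1-KO sample (circles) and WT sample (squares), with the mean of 6 as a line. WT replicate 3, the open square, is lowest in all 4 panels, at 1.23 CPM, 6.59 CPM, 27.9 CPM and 0.132%.

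Per length, capn2b was the most abundant calpain transcript in both genotypes, at 118 ± 27 TPM in lrpap1-KO and 48.0 ± 10.5 TPM in WT eyes (SD, n = 6 each). Among the 10 genes, the order below it differed. In lrpap1-KO eyes capn9 and capn2l followed, at 99.6 ± 24 and 85.1 ± 22 TPM, overlapping each other and capn2b in range, and capn1a lay well below at 31.3 ± 2.9 TPM. In WT eyes capn1a and capn9 came next, at 30.5 ± 3.5 and 29.8 ± 11.4 TPM, with each of them higher in 3 of 6 samples. capn2l was at 15.4 ± 11.8 TPM in WT eyes, close to capn2a at 13.2 ± 7.3 and capn1b at 12.6 ± 4.7 TPM, and capn3a ranged over 0.665 to 20.5 TPM, with no neighbours in that order apart in range. In lrpap1-KO eyes capn2a, capn1b and capn3a were at 25.2 ± 14, 13.4 ± 2.5 and 12.3 ± 2.5 TPM. At the bottom, capn10 was at 7.92 ± 2.2 TPM in lrpap1-KO and 7.69 ± 0.74 TPM in WT eyes. capn8 and capn5b stayed under 4 TPM in every sample.

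Summed over the 16 calpain genes, the level was 397 to 591 TPM in lrpap1-KO eyes and 183 to 285 TPM in WT eyes. capn2b, capn9 and capn2l together gave 50.7% to 67.2% of that sum in lrpap1-KO eyes and 31.2% to 52.8% in WT eyes. The highest WT value was that of replicate 3, which lay inside the lrpap1-KO range, and without it the WT range was 31.2% to 49.5%. These 3 genes were taken for their large differences between genotypes, so a higher share in lrpap1-KO eyes follows from that choice. They also make up much of the sum, so its higher level in lrpap1-KO eyes is no separate result. capn2l alone gave 14.8% to 19.9% in lrpap1-KO eyes and 0.932% to 13.3% in WT eyes, or up to 10.9% without WT replicate 3. The share from capn2b overlapped between genotypes, with 21.1% to 26.2% in lrpap1-KO and 18.9% to 23.1% in WT eyes. The share from capn1a was 4.79% to 8.58% in lrpap1-KO and 10.4% to 18.6% in WT eyes. capn1a itself was at similar levels, 31.3 ± 2.9 TPM in lrpap1-KO and 30.5 ± 3.5 TPM in WT eyes. Its lower share in lrpap1-KO eyes thus goes with the larger sum.

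**Figure D4:**
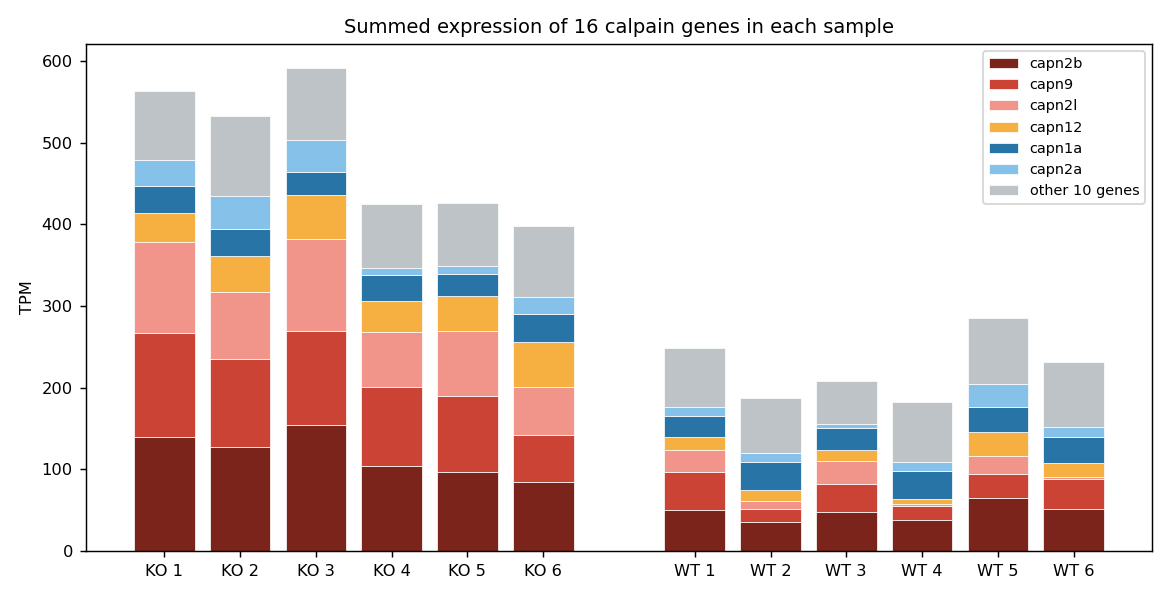
TPM (y axis) of 16 calpain genes stacked in each lrpap1-KO and WT sample (x axis), with 6 genes in colour and the other 10 in grey. The stacks reach 397 to 591 TPM in lrpap1-KO eyes and 183 to 285 TPM in WT eyes, and the capn2l segment is thinnest in WT replicates 4 and 6.

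In position, 6 of the 10 genes sit in a pair of clusters. By the coordinates of the table (GRCz11), capn1b (chromosome 22, 26298026 to 26327945) and capn2b (26328063 to 26353916) lie on the reverse strand with 117 bases between them. capn8 (26400519 to 26435501) and capn2l (26443235 to 26476079) follow on the forward strand of the same chromosome, 7733 bases apart. capn1a (chromosome 13, 42681387 to 42724673) and capn2a (42728570 to 42756566) lie 3896 bases apart on the reverse strand. In description only, the neighbours did not move as 1 block. For the adjoining capn1b and capn2b, the ratio of their TPM, capn2b over capn1b, was 6.29 to 13.6 in lrpap1-KO eyes and 2.04 to 4.02 in WT eyes, apart from WT replicate 3, where it was 11.9 and capn1b was low. The family was chosen by the higher capn2b of the mutants, so a higher ratio in lrpap1-KO eyes follows from that choice. The ratio of capn2a over capn1a was 0.267 to 1.36 in lrpap1-KO and 0.218 to 0.887 in WT eyes. Near copies and adjoining genes may have shared reads in the authors' counting, whose use of strand is not stated.

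Within 200000 bases of the cluster on chromosome 22 the table held 16 genes that are no calpains, of which 10 were tested. Of these, 2 were differentially expressed, against 4.55% of all genes tested, and both were higher in lrpap1-KO eyes. They were c3b.1 and c3b.2, tandem copies of a complement C3 gene, at 7.61 and 4.09 CPM in lrpap1-KO and 0.349 and 0.196 CPM in WT eyes. Their log2FCs were 4.45 (SE 0.54, edgeR adjusted p = 0.000242) and 4.36 (SE 0.68, edgeR adjusted p = 0.00144). Both were near the floor in WT eyes, so the size of these log2FCs is poorly fixed. Of the 8 neighbours tested around capn1a and capn2a and the 17 around capn9, none was differentially expressed by edgeR, with 2 and 3 at an unadjusted p under 0.05 and 0 by DESeq2. Below the fold threshold, xpo1a (log2FC 0.46, edgeR adjusted p = 0.00893) and crfb17 (log2FC 0.87, edgeR adjusted p = 0.0432) near capn9 and mrps28 (log2FC -0.44, edgeR adjusted p = 0.049998) near the cluster on chromosome 22 had an adjusted p below 0.05. capn9 lies on chromosome 1 (53881844 to 53907047), 12740400 bases from lrpap1 on the same chromosome. The other genes were capn3a (chromosome 17, 45305445 to 45346637), capn5b (chromosome 21, 22145603 to 22216278) and capn10 (chromosome 2, 45139765 to 45154658).

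The rest of the family was tested in the same fit. The table held 6 further calpain genes, capn1 (listed as zgc:55262), capn3b, capn5a, capn7, capn12 and capn15, and 5 passed the filter. Of these, 1 was differentially expressed, capn12, whose mouse counterpart is active in the hair follicle. It was at 50.7, 60.5, 76.6, 56.5, 60.6 and 76.5 CPM in lrpap1-KO replicates 1 to 6, against 28.1, 23.9, 20.1, 9.26, 41.2 and 25.6 CPM in WT replicates 1 to 6. The genotypes did not overlap. The log2FC was 1.37 (SE 0.25, edgeR adjusted p = 0.00396), and the adjusted p stayed at or below 0.0139 over the alternatives. With no minimum fold, 11.2% of all genes tested had an adjusted p below 0.05. capn5a and capn7 were among them with smaller differences, a log2FC of 0.67 (edgeR adjusted p = 0.0464) and of 0.37 (edgeR adjusted p = 0.0399), and without WT replicate 3 the adjusted p was 0.0772 and 0.0644. capn1 had a log2FC of 0.59 (SE 0.20, edgeR adjusted p = 0.0671), and its adjusted p was 0.108 without WT replicate 3. capn15, whose human gene is linked to eye malformation, had one of 0.04 (SE 0.09, edgeR adjusted p = 0.836).

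capn3b, the second calpain 3 gene, did not pass the filter. It had 3 to 8 counts in lrpap1-KO and 8 to 20 counts in WT eyes. As CPM its lrpap1-KO samples, at 0.325 to 0.779, all lay below the WT samples, at 0.832 to 2.64. Without the filter its log2FC was -1.30 (edgeR adjusted p = 0.0752). Skeletal muscle, where calpain 3 is abundant in mammals, was present in every sample. Its 14 markers summed to 862 to 1773 CPM in lrpap1-KO and 797 to 2169 CPM in WT eyes, and of the 10 tested 1, acta1b, was differentially expressed and lower in lrpap1-KO eyes. The log2FC was above 0 for 2 of the 10, and its median was -0.38, or -0.44 without WT replicate 3. The part of muscle in the capn3b values was not tested.

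The small subunit genes, partners of the classical calpains, had smaller log2FCs than capn2b, capn2l and capn9. capns1a was at 116, 96.5, 125, 109, 89.7 and 90.3 CPM in lrpap1-KO replicates 1 to 6, against 81.3, 68.4, 68.2, 48.8, 77.9 and 77.0 CPM in WT replicates 1 to 6, with no overlap. Its log2FC was 0.57 (SE 0.12, edgeR adjusted p = 0.0107), under the fold threshold. capns1b was at 47.5 to 89.1 CPM in lrpap1-KO and 39.3 to 56.4 CPM in WT eyes, with a log2FC of 0.45 (SE 0.15, edgeR adjusted p = 0.0703). The TPM of the 8 calpain 1, 2, 8 and 9 genes over that of both small subunits was 1.33 to 1.57 in lrpap1-KO and 0.875 to 1.04 in WT eyes. The inhibitor gene cast was at 446 to 791 CPM in lrpap1-KO and 250 to 544 CPM in WT eyes, with a log2FC of 0.59 (SE 0.20, edgeR adjusted p = 0.0755). The TPM of capn2b over that of cast was 0.411 to 0.524 in lrpap1-KO and 0.247 to 0.356 in WT eyes. capn2b was used to choose the family, and the 8 large subunit genes include capn2b, capn2l and capn9. The higher ratios to the small subunits and to cast in lrpap1-KO eyes therefore follow at least in part from that choice.

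**Figure D5:**
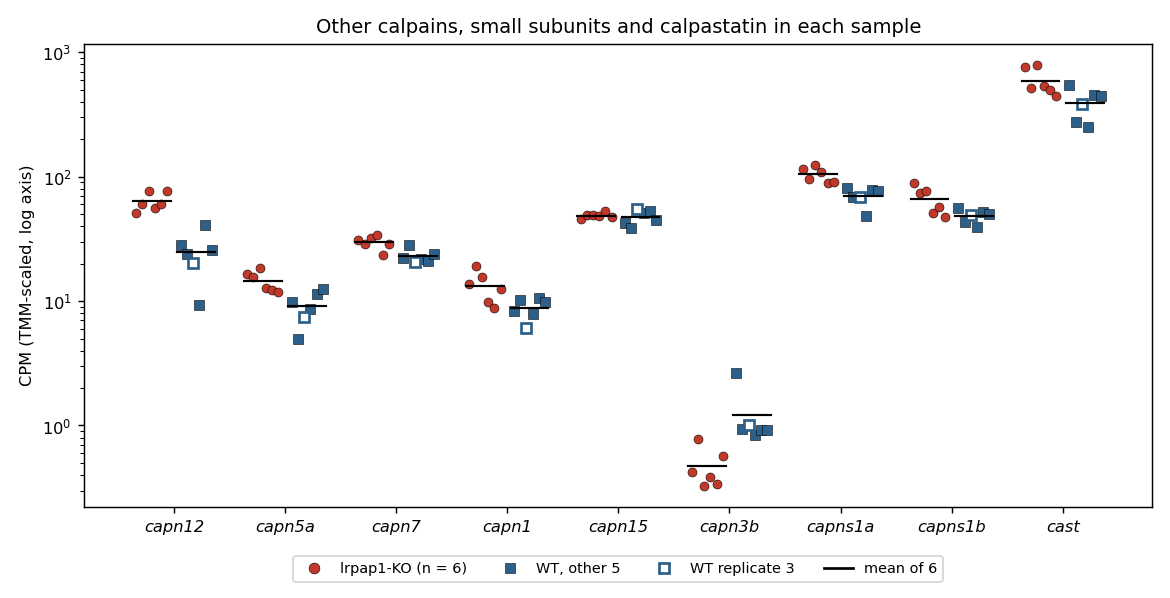
CPM on a log axis (y) of 6 further calpain genes, both small subunit genes and calpastatin (x) in each lrpap1-KO sample (circles, left) and WT sample (squares, right; WT replicate 3 open), with the mean of 6 as a line. The genotypes do not overlap for capn12, capn3b and capns1a, and capn3b is the one of these that is lower in lrpap1-KO eyes.

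Genes for known calpain substrates of mammals were followed as a list of 18, of which 17 were in the table and were tested. None was differentially expressed by edgeR, and 0 were so by DESeq2, while 2 had an unadjusted p under 0.05 in edgeR. The median log2FC was 0.09. ezrb, for the membrane-cytoskeleton linker ezrin, came nearest, with a log2FC of 0.42 (SE 0.12, edgeR adjusted p = 0.0341). The genes for α-spectrin (sptan1, listed as spna2) and β-spectrin (sptbn1), the classical substrates, had log2FCs of 0.02 (edgeR adjusted p = 0.936) and 0.06 (edgeR adjusted p = 0.829). These are transcript levels, and cleavage of the proteins was not measured.

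The genes whose pattern over the 12 samples was most like that of a calpain were found by the root mean square difference of centred log2(CPM + 1). Centring was over all 12 samples and not within genotype, so a shared difference between genotypes counts as likeness. For capn2b these were gsnb (gelsolin b, an actin-severing protein), zgc:158263, fam83hb, tmem176l.4 and plcd1a (a phospholipase C), at 0.14 to 0.17, against a median of 0.71 over all other genes tested. Their log2FCs were 1.16 to 1.27, close to that of capn2b, which was used to choose the family. For capn3a they were si:ch211-262i1.3, hsf4 (heat shock transcription factor 4, a lens regulator in mammals), gja3 (a lens connexin), zgc:153704 and dnase1l1l, at 0.23 to 0.28, against a median of 1.09. These 5 were at 0.223 to 20.1 CPM in WT replicate 3, each below all other samples. For capn9, added after its values had been seen, they were krt1-19d, scel (sciellin), evpla, clic3 and si:dkeyp-98a7.1, at 0.22 to 0.25 against a median of 0.99. Sciellin and envoplakin are precursors of the cornified envelope in mammalian skin. For capn2l, also added afterwards, no gene came as close, with si:ch211-209l18.4 nearest at 0.66 and anxa1c (annexin A1c) next at 0.73, against a median of 1.77. After these came mxa (myxovirus resistance A), LOC100001846 and caspbl (caspase b, like), at 0.81 to 0.82.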

How the data were processed

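Polyadenylated RNA from the eyeballs of 6 lrpap1-KO and 6 WT zebrafish was sequenced on an Illumina HiSeq2500 by the authors, who aligned the reads to GRCz11 with HISAT2 2.1.0 (submitters' processing notes). The counting program and its use of strand are not given in the sources used here. The deposited counts are raw reads per gene in each sample. The deposited TPM values divide these by the listed gene length and rescale each sample, which was checked to hold within 4.99e-06.

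The count test was edgeR 4.0.16 under R 4.3.3, by quasi-likelihood with genotype as the only term after filterByExpr and TMM, with Benjamini-Hochberg adjustment over 18984 genes. Alternatives were DESeq2 1.42.0, upper quartile scaling, keeping every gene with 1 count or more, keeping those with 10 or more counts throughout, a replicate block, and each sample left out. Standard errors were derived from the F statistic. The fits were tested on simulated data. No 2 samples were the same library, with a chi-square of at least 7.43 per degree of freedom. A gene at few counts carries a large counting error. The replicate numbers name different fish.

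Named genes were the 10 calpains, lrpap1, all other calpains, small subunits, calpastatin and 18 substrates, with the 5 genes most like capn2b, capn3a and any calpain whose WT replicate 3 was under 0.25 of the lowest other sample (no further one was). The marker lists were lens, muscle, surface epithelium, leukocyte, fibroblast and retina. Members and lists were chosen with earlier results of these data known. Of 10 retina markers, 1 was differentially expressed and lower in lrpap1-KO eyes (opn1mw1), and of 8 fibroblast markers 0 were, with 0 at an unadjusted p under 0.05 in edgeR (4 without WT replicate 3) and 0 by DESeq2. Of 47 crystallin genes tested, 0 were by edgeR, with 3 at an unadjusted p under 0.05, 2 by DESeq2, and 3 lower by edgeR without WT replicate 3, where 22 had an unadjusted p under 0.05.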

Additional observations from a re-analysis of the deposited data

Results flagged for a closer look

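Within each genotype, 76 groups of 6 values were searched for a sample far from the rest by Dixon's ratio, and 5 had one, where chance alone gives about 3.8. Some groups share genes and are not independent, so 5 against 3.8 is no test. It also says nothing of the size of any 1 difference. capn3b was at 2.64 CPM in WT replicate 1, against 0.832 to 1.00 CPM in the other WT samples. The crystallin share of the TPM was 0.132% in WT replicate 3, against 12.8% to 20.4% in the other WT samples. The ratio of capn2b over capn1b TPM was 11.9 in WT replicate 3, against 2.04 to 4.02 in the others. The ratio of capn2a over capn1a TPM was 0.887 in WT replicate 5, against 0.218 to 0.401. The total count was 7988538 in WT replicate 1, against 9142860 to 9829112.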

How the results depend on the processing

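Over 17 alternatives, capn12 was differentially expressed at both thresholds each time, and none of the other further calpains, small subunits, substrates and calpastatin was. All 168 values of the 10 calpains that could be fitted moved by less than 1 SD of log2(CPM + 1) between fish, pooled over both genotypes. Leaving out 1 of 6 samples can hardly move a group mean that far, so this says little about those fits. The sign turned for capn5b in 10 alternatives, for capn1b in 5, for capn10 in 2, and for capn1a and capn3a in 1 each. capn3a was at 0.05 with the replicate block, against -0.47 to -0.01 with single samples left out. Over all genes, DESeq2 called 1525, the filter of 10 counts in every sample 464, and an adjusted p under 0.05 at any fold 2124, against 864. Without a minimum fold, the genes called among the other calpains, partners and substrates numbered 5, against 1. With each sample left out, 686 to 1160 genes were called, and 640 with the replicate block. The numbers name different fish, same-numbered samples correlated at -0.27 to 0.09, and 0 of 6 mutants correlated best with their own number. With the block, the adjusted p was 0.120 for capn5a and 0.0962 for capn7. The adjusted p of capn5a also passed 0.05 without any 1 of lrpap1-KO or WT replicates 1 to 4, and that of capn7 without any 1 of lrpap1-KO replicates 1 to 4 or WT replicates 1, 3, 4, 5 and 6. That of ezrb did so without lrpap1-KO replicate 1 or 3 or WT replicate 2, 4 or 6. That of capn1, capns1b and cast came under 0.05 with DESeq2, and without lrpap1-KO replicate 4 or 5 (capn1), lrpap1-KO replicate 4 or 6 (capns1b) or WT replicate 1 (cast). The filter of 10 counts left out capn8 and capn5b, the lowest of the 10 calpains in counts.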
